A study of Mus musculus with 8 samples.

Results

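Mitochondrial solute carriers are the proteins that move metabolites across the inner mitochondrial membrane, and their genes were followed here in the brains of db/db mice on a ketogenic or a normal diet. The members were all gene symbols of the deposited count table that begin with Slc25a, 46 in number, together with Ucp1, Ucp2 and Ucp3, which gave 49 of 17983 symbols. All mice were labelled male and db/db, a genotype with a leptin receptor mutation that leads to obesity and type 2 diabetes, so no lean animal entered the comparison. The 4 ketogenic libraries came from mice fed a ketogenic diet, which replaces most carbohydrate with fat, and the 4 control libraries from mice on a normal diet. The series description puts the start of feeding at 9 weeks of age and the sampling of whole brains at 6 months. Whether each library came from 1 animal is not said in the sources used here, so the p-values measure the spread between these libraries, which may in part be technical.

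The inner mitochondrial membrane is nearly closed to charged metabolites, and the carriers open it selectively. ADP/ATP exchangers and the phosphate carrier supply the ATP synthase and export its product, the aspartate/glutamate and oxoglutarate carriers bring the reducing power of glycolysis into the matrix through the malate-aspartate shuttle, and the carnitine/acylcarnitine carrier admits fatty acids for oxidation. In brain, neurons rely on the shuttle carriers for respiration on glucose, glutamate carriers link the citric acid cycle to transmitter metabolism, and uncoupling proteins have been studied for their effects on heat, reactive oxygen and fuel choice. Ketone bodies enter cells largely through monocarboxylate transporters outside this family.

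Total counts ran from 38163795 to 40233361 in ketogenic libraries and from 34450860 to 38738800 in control libraries (exact permutation p = 0.0857, adjusted p = 0.257). On the first principal component of log2 CPM (counts scaled to library size), which held 22.9% of the variance, ketogenic replicate 3 stood apart at 34.4, with the other ketogenic replicates at 2.90 to 11.2 and the control replicates at -22.7 to -5.94. The label of whole brain was met by its markers: 6 neuron markers summed to 7535 to 9265 CPM in ketogenic and 8280 to 9292 CPM in control libraries, and 6 oligodendrocyte markers to 4721 to 6250 CPM and 5073 to 5388 CPM. The summed CPM of 6 erythroid markers was 69.6 to 118 in ketogenic and 15.8 to 52.6 in control libraries, and 4 of the 6 passed as higher. Hbb-bs made up most of the sum, at means of 66.4 of 94.3 CPM in ketogenic and 24.9 of 34.5 CPM in control libraries. The exact permutation test on that sum gave p = 0.0286, the smallest that 4 against 4 libraries allow, with an adjusted p of 0.257 over 9 such values. Of 6 astrocyte markers 4 passed as lower. The summed CPM of all 6 was 3521 to 4068 in ketogenic and 3718 to 4482 in control libraries (exact permutation p = 0.143, adjusted p = 0.322). Slc1a2, which did not pass, held most of it, at means of 2585 of 3805 CPM in ketogenic and 2808 of 4194 CPM in control libraries. The summed CPM of 6 choroid plexus markers was 1067 to 1372 in ketogenic and 594 to 1144 in control libraries, a 1.34-fold higher mean in ketogenic libraries (exact permutation p = 0.0571, adjusted p = 0.257), and none of the 6 passed in edgeR's test, with 2 at an unadjusted p under 0.05. Most of the choroid plexus sum was Ttr, at means of 1141 of 1238 CPM in ketogenic and 833 of 922 CPM in control libraries. Log2 changes were above 0 for 3 of these 6 markers and below 0 for 3. The part of the erythroid, astrocyte and choroid plexus lists in the carrier values was not tested. No defining marker of these lists was at 0 in any group. In whole tissue, fewer cells of a type and less RNA per cell cannot be told apart.

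The carrier genes as a family differed little between the diets. Of the 49 members 42 passed the filter on low counts and were tested, and 2 of these rose in ketogenic brains, the ADP/ATP exchanger gene Slc25a5 and the uncoupling protein gene Ucp2. None fell and 40 did not pass, at an adjusted p under 0.05 in edgeR's quasi-likelihood test. The 2 members are 4.76% of those tested, while 6.52% of all 14895 tested genes passed in either direction, 3.30% as higher and 3.22% as lower, so the share among the carriers lay near the background. The members' log2 changes were above 0 in 25 and below 0 in 17, with a median of 0.024 against -0.003 over all tested genes. Among the 20 members with a mean of at least 30 CPM, 16 were above 0 and 4 below, with a median of 0.061. Other genes of like abundance were not set beside these 20. Unadjusted p-values were under 0.05 for 11 members, or 26.2%, against 24.6% of all tested genes. The ketogenic and control values did not overlap for 5 members, or 11.9%, against 13.7% of all tested genes. These were Slc25a5, Ucp2, Slc25a3, Slc25a12 and Slc25a28, each higher in ketogenic libraries. When single libraries were left out, no member passed once ketogenic replicate 2 or either of control replicates 1 and 2 was missing. Of all tested genes 1.31%, 0.971% and 1.36% passed in these fits. Only Slc25a5 passed when ketogenic replicate 4 or control replicate 3 was missing, against 3.58% and 2.81% of all tested genes. Leaving out control replicate 4 gave 5 higher and 1 lower among 43 members tested, against 12.7% of all tested genes in either direction. Leaving out ketogenic replicate 3 gave 3 higher, Slc25a5 and Ucp2 among them, against 4.75%. Removing a trend on GC content and gene length gave 1, Slc25a5, against 2.09%.

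**Figure D1:**
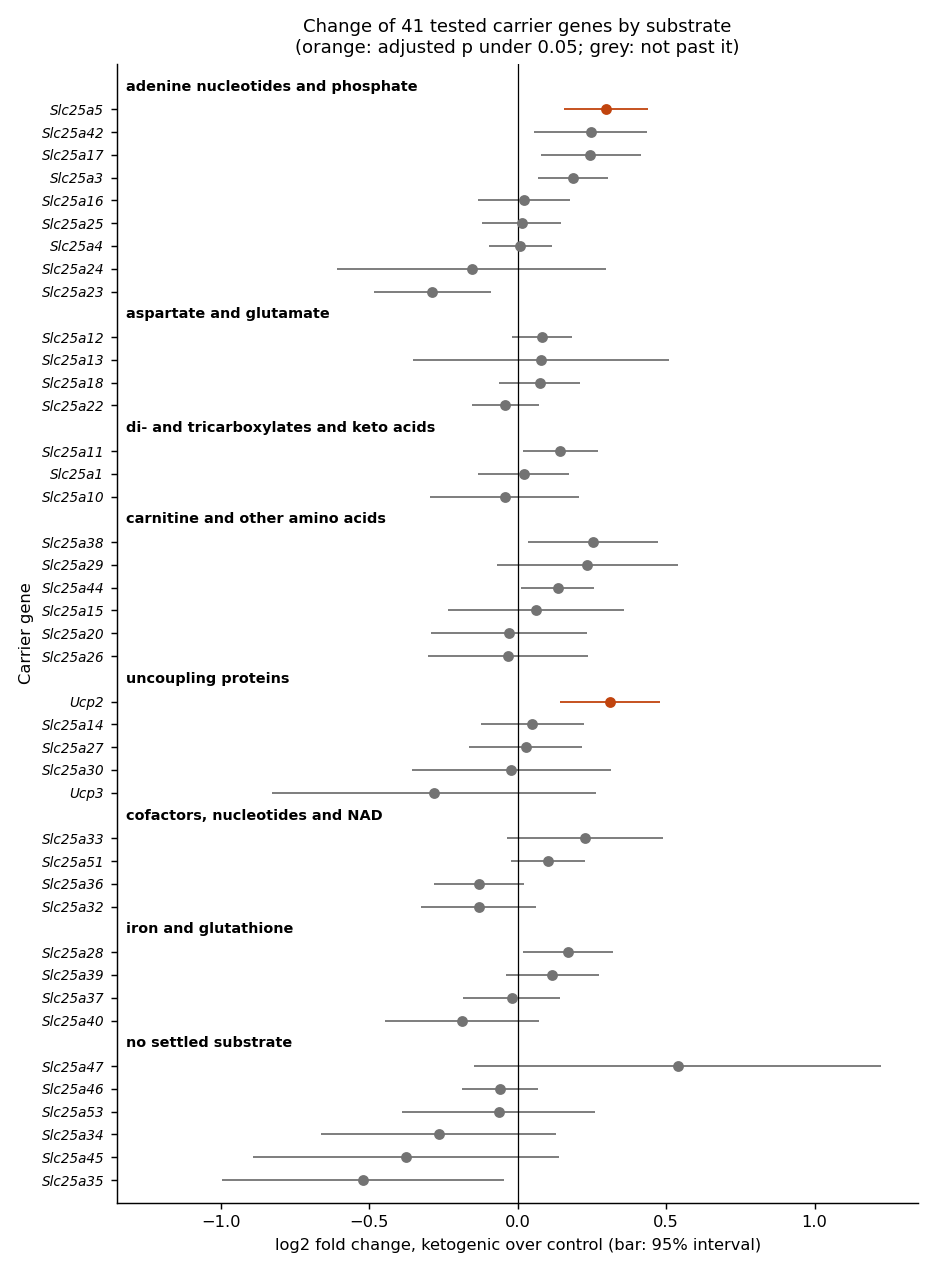
Log2 fold change of 41 of the 42 tested carrier genes, ketogenic over control (x axis), with its 95% interval, grouped by transported substrate (y axis). Orange marks the 2 genes past an adjusted p of 0.05, Slc25a5 and Ucp2, and grey the genes that did not pass.

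Promoters come from the RefSeq table of GRCm38.p6, as the 250 bases before the annotated start, and are given for Slc25a5 and Ucp2, the 2 members that rose. Each is written 5′ to 3′ on the gene's own strand, and capitals mark every match on either strand to the GC box GGGCGG. The CCAAT box was searched on both strands too. The windows are chrX:36795347-36795596 (plus strand) for Slc25a5 and chr7:100493108-100493357 (plus strand) for Ucp2. RefSeq and GENCODE place some starts differently: the last 21 bases of the Ucp2 window lie within the GENCODE bounds of the gene, and 0 bases of the Slc25a5 window do. The Slc25a4 window is not shown, because 222 of its 250 bases lie within the GENCODE bounds of that gene.
Slc25a5: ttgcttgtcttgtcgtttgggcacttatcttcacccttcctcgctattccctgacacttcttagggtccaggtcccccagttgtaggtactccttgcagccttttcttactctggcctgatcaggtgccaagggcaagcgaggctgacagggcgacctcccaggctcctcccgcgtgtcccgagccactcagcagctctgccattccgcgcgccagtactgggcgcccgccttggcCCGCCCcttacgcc
Ucp2: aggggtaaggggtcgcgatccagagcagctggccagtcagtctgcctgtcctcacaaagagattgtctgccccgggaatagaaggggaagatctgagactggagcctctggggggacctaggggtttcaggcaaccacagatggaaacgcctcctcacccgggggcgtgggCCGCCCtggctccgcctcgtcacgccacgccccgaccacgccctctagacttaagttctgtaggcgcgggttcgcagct
The Slc25a5 and Ucp2 windows each held 1 GC box match and 0 CCAAT matches. Neither held the palindromic NRF1 motif, the estrogen-related receptor motif TCAAGGTCA or the cyclic AMP response element TGACGTCA, each searched on both strands in 1 spelling. These were in 0.782%, 0.387% and 1.55% of all windows. Among 32851 windows of the same length in the table, 32.7% held a GC box and 33.8% a CCAAT box. Among the 48 windows of the 38 carrier genes found there, 68.8% held a GC box and 43.8% a CCAAT box. The 32851 windows were not matched to the carriers in GC content or level, and no test was run between these shares. GC content was 61.6% for Slc25a5 and 63.6% for Ucp2, against a median of 52.4% over all windows. These matches describe the letters and do not show a bound site.

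Levels are compared between genes in FPKM, the deposited values per kilobase of gene length. The highest was Slc25a4, the ADP/ATP exchanger of heart, muscle and brain, at 393 ± 10.2 FPKM in ketogenic and 390 ± 13.7 FPKM in control libraries (SD, n = 4 each). Slc25a3, the phosphate carrier, Slc25a23, a calcium-regulated ATP-Mg/phosphate carrier, and Slc25a5 followed in the mean over all 8 libraries. In group means, Slc25a3 lay above Slc25a23 in ketogenic libraries, at 177 ± 9.48 against 139 ± 9.14 FPKM. In control libraries the mean of Slc25a3 lay below that of Slc25a23, at 155 ± 8.41 against 170 ± 26.5 FPKM. Neither gene's change between the diets passed. The range of Slc25a4 over the 8 libraries lay apart from the rest, those of Slc25a3 and Slc25a23 overlapped, as did those of Slc25a23 and Slc25a5, and Slc25a5 lay apart from the next gene. These 4 genes held 64.2% to 66.1% of the summed carrier FPKM in ketogenic libraries and 64.4% to 66.7% in control libraries. The summed carrier FPKM itself was 1240 to 1307 in ketogenic and 1230 to 1264 in control libraries. Slc25a22, a glutamate carrier, at 63.8 ± 1.72 and 65.5 ± 2.24 FPKM in ketogenic and control libraries, and Slc25a11, the oxoglutarate/malate carrier, at 44.1 ± 1.20 and 39.7 ± 3.26 FPKM, stood apart from their neighbours. From Slc25a1, the citrate carrier, at 24.5 ± 2.81 and 24.0 ± 0.70 FPKM, down to Slc25a16 at 13.7 ± 0.66 and 13.4 ± 1.1 FPKM, neighbours overlapped throughout. Of the 41 neighbouring pairs among tested members, 6 had ranges that did not overlap.

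**Figure D2:**
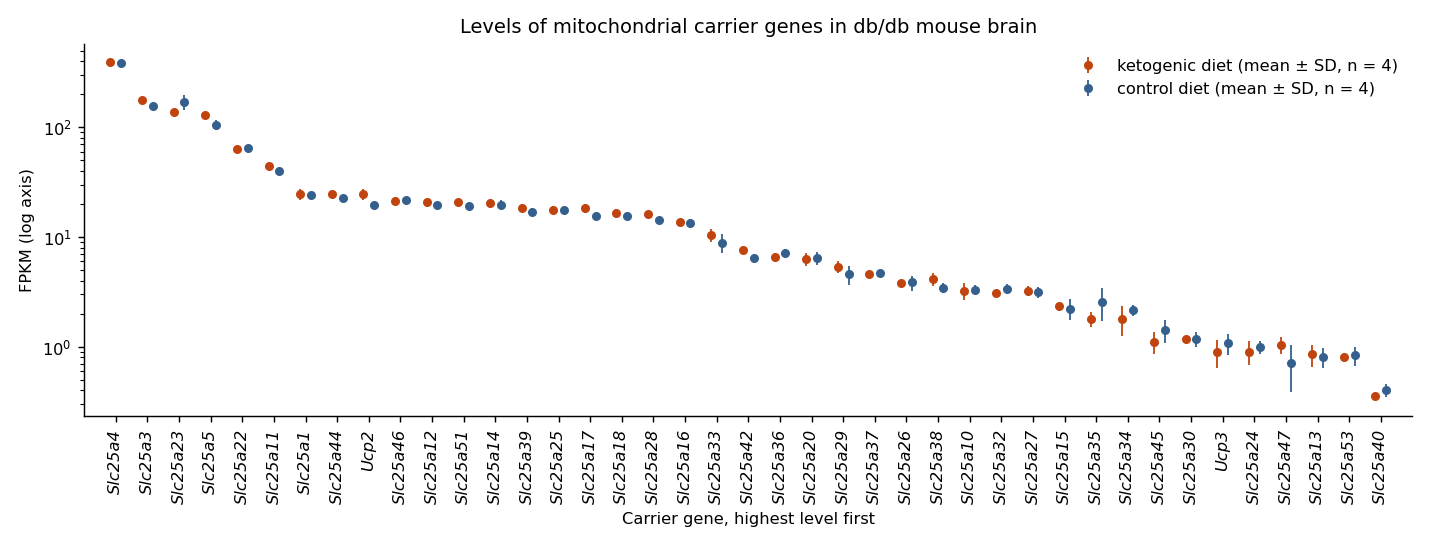
Level of 41 of the 42 tested carrier genes in FPKM (y axis, log scale), highest first (x axis), as mean ± SD of 4 ketogenic libraries (orange) and 4 control libraries (blue). Slc25a4 lies near 390 FPKM in both diets and Slc25a40, the lowest, under 0.5 FPKM.

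A mean of at least 10 FPKM was reached by 19 members, 17 lay between 1 and 10 FPKM, and 13 lay under 1 FPKM. The length that the FPKM values imply was 23421 bases for Slc25a40 and 11138 bases for Slc25a27, against 1295 bases for Slc25a5, which lowers the FPKM of the first pair for a given count. The 7 members left out by the filter were Slc25a2, Slc25a21, Slc25a31, Slc25a41, Slc25a43, Slc25a48 and Ucp1. Ucp1, which makes heat in brown fat, had 1 count in all 4 ketogenic libraries together and 1 in all 4 control libraries. Slc25a31, the ADP/ATP exchanger of germ cells, had 1 count in ketogenic libraries and 14 in control libraries, all 14 in control replicate 3. Slc25a21, the oxodicarboxylate carrier, had 34 counts in ketogenic and 45 in control libraries. No change was detectable for these 7 at this depth.

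Carriers of adenine nucleotides and phosphate included 1 member that rose, 0 that fell and 8 that did not pass among 9 tested. Their median log2 change was 0.021, with a range of -0.29 to 0.30. Unadjusted p-values in edgeR's test were under 0.05 for 5, with 4 higher and 1 lower. That is 55.6%, against 24.6% of all tested genes, and no test was run over the group. Slc25a5 (ENSMUSG00000016319, chrX:36795651-36798807 on GRCm38), the ADP/ATP exchanger linked to proliferating and glycolytic cells, had 156, 174, 181 and 163 CPM in ketogenic replicates 1 to 4, against 121, 138, 140 and 150 CPM in control replicates 1 to 4. Every ketogenic library was above every control library, with control replicate 1 the lowest of the 8. The control values rose in the order of their total counts (34450860, 35821627, 35948836 and 38738800) and of their first principal component. Control values of Slc25a3 and Slc25a11 had that order too, those of Slc25a4 and Ucp2 did not, and the ketogenic values of Slc25a5 did not follow total counts. The part of total counts or of that component in the Slc25a5 change was not tested. The log2 change was 0.30 ± 0.07 (SE), a 1.23-fold difference with a 95% interval of 1.12 to 1.36 (edgeR adjusted p = 0.0203). It no longer passed when control replicate 1 (adjusted p = 0.0709), ketogenic replicate 2 (0.0685) or control replicate 2 (0.0612) was left out, and over all 16 alternatives the adjusted p ran from 0.00119 to 0.0709. Reads of Slc25a5 are uncertain to the extent that its processed copy Slc25a5-ps shares them.

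Slc25a4 (ENSMUSG00000031633, chr8:46206797-46211284 on GRCm38), which exchanges the same nucleotides, had 508, 530, 542 and 513 CPM in ketogenic libraries, against 526, 521, 543 and 491 CPM in control libraries. The groups overlapped almost fully, and the log2 change was 0.01 ± 0.05 with a 95% interval of -0.10 to 0.12 (adjusted p = 0.94). In FPKM, the Slc25a5 level divided by the Slc25a4 level was 0.316, 0.338, 0.343 and 0.327 in ketogenic libraries, against 0.236, 0.272, 0.266 and 0.313 in control libraries. The ratio was thus higher in each ketogenic library than in any control library, with control replicate 4 closest. It was formed after the change of Slc25a5 had been seen and was given no test.

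Slc25a3 (chr10:91116574-91124059), which brings in the phosphate for ATP synthesis, had 284, 312, 325 and 294 CPM in ketogenic libraries, against 251, 265, 273 and 279 CPM in control libraries. The groups did not overlap, yet the log2 change of 0.19 ± 0.06 did not pass (edgeR adjusted p = 0.0581). It was past the threshold in 5 of 16 alternatives, with adjusted p from 0.0168 to 0.17. Slc25a23 (chr17:57043711-57059863) had 554, 474, 570 and 505 CPM in ketogenic libraries, against 782, 622, 636 and 525 CPM in control libraries. The groups overlapped through control replicate 4, and control replicate 1 was the highest of the 8. Its log2 change of -0.29 ± 0.09 did not pass (adjusted p = 0.0709), but did without control replicate 4 (log2 change -0.37, 0.0109), and its adjusted p ran from 0.0109 to 0.228 over all alternatives. Its bounds overlap Crb3 on the opposite strand, at 0.452 ± 0.139 CPM in ketogenic and 0.169 ± 0.0891 CPM in control libraries.

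Slc25a17, a carrier of the peroxisome, was at 30.6 ± 2.29 CPM in ketogenic and 25.8 ± 1.83 CPM in control libraries. Slc25a42, which carries coenzyme A, was at 24.3 ± 2.02 and 20.5 ± 1.98 CPM. Both had log2 changes of 0.25, with adjusted p of 0.0715 and 0.103 in edgeR's test, and neither passed. Slc25a17 was past the threshold in 3 of 16 alternatives, with the DESeq2 Wald test (0.0379), without ketogenic replicate 3 (0.0441) and without control replicate 4 (0.0465), and its adjusted p ran up to 0.216. Slc25a17 and Slc25a42 were named after their values were seen. Slc25a25, another calcium-regulated ATP-Mg/phosphate carrier, had 70.6, 77.0, 73.4 and 80.1 CPM in ketogenic libraries, against 69.1, 77.6, 72.1 and 79.6 CPM in control libraries. Replicates of the same number lay close together for that gene, and its log2 change was 0.01 ± 0.06.

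**Figure D3:**
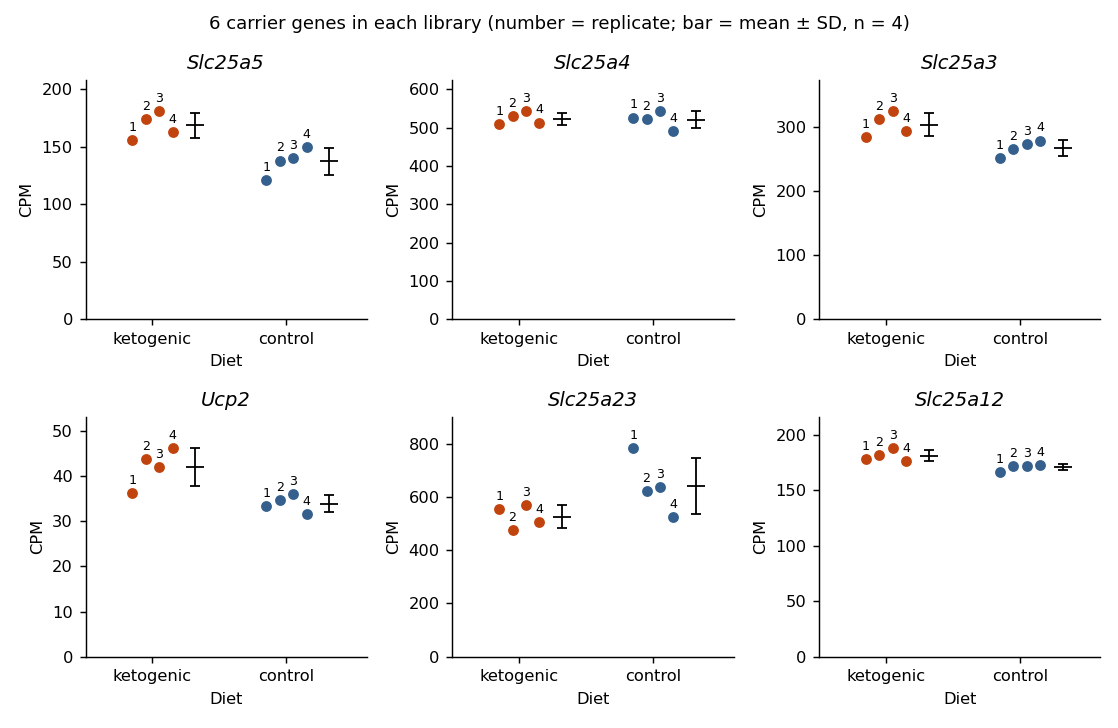
CPM (y axis, from 0) of 6 carrier genes in each of 4 ketogenic (orange) and 4 control (blue) libraries (x axis), numbered by replicate, with mean ± SD in black. Slc25a5, Slc25a3, Ucp2 and Slc25a12 have ketogenic values above all control values, while Slc25a4 and Slc25a23 overlap.

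None of the 4 carriers of aspartate and glutamate passed, and their median log2 change was 0.076. Slc25a12 (chr2:71271063-71367749), the aspartate/glutamate exchanger of neurons and the committed step of the malate-aspartate shuttle, had 178, 182, 188 and 177 CPM in ketogenic libraries, against 167, 172, 172 and 173 CPM in control libraries. The groups did not overlap but lay close, with a log2 change of 0.08 ± 0.05 and a 95% interval of -0.02 to 0.18 (edgeR adjusted p = 0.32). Its paralog Slc25a13, the exchanger typical of liver, was far lower per length, at 0.854 ± 0.194 FPKM in ketogenic and 0.804 ± 0.162 FPKM in control libraries, against 21.0 ± 0.38 and 19.8 ± 0.51 FPKM for Slc25a12. Slc25a22, the main glutamate carrier of neurons, had 215, 210, 231 and 208 CPM in ketogenic libraries, against 234, 215, 217 and 224 CPM in control libraries. The groups overlapped, with a log2 change of -0.04 ± 0.05 (adjusted p = 0.682).

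Slc25a18, the glutamate carrier enriched in astrocytes, had 70.4, 79.3, 71.3 and 81.6 CPM in ketogenic libraries, against 70.4, 69.8, 77.6 and 69.8 CPM in control libraries. Its log2 change was 0.07 ± 0.06 with a 95% interval of -0.06 to 0.21 (edgeR adjusted p = 0.528). Its bounds overlap Atp6v1e1, which was at 353 ± 22.5 CPM in ketogenic and 316 ± 20.6 CPM in control libraries, and whether reads were shared was not tested. Of the 6 astrocyte markers all had negative log2 changes, between -0.54 and -0.05, and 4 passed. The part of the astrocyte markers' change in the Slc25a18 value was not tested.

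No carrier of di- and tricarboxylates passed among 3 tested, and their median log2 change was 0.020. Slc25a11 (chr11:70644196-70647479), which exchanges oxoglutarate for malate in the same shuttle, had 90.5, 92.5, 94.3 and 93.9 CPM in ketogenic libraries, against 76.2, 81.9, 87.0 and 90.6 CPM in control libraries. The ketogenic values were tightly grouped and met the control group only at control replicate 4. The log2 change of 0.14 ± 0.06 did not pass (edgeR adjusted p = 0.144), but did without control replicate 4 (0.0478), with a range of 0.0478 to 0.376 over all alternatives. Rnf167, whose bounds overlap it, was at 81.4 ± 1.87 CPM in ketogenic and 81.7 ± 2.80 CPM in control libraries. Slc25a1, which exports citrate for lipid synthesis, was at 40.9 ± 3.84 CPM in ketogenic and 40.4 ± 1.17 CPM in control libraries, with a 95% interval of the log2 change from -0.13 to 0.17. Slc25a10, the dicarboxylate carrier, was at 12.8 ± 2.04 and 13.2 ± 1.23 CPM.

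None of the 6 tested carriers of carnitine and other amino acids passed, with a median log2 change of 0.099. Slc25a20, the carnitine/acylcarnitine exchanger needed for long-chain fatty acid oxidation, had 12.5, 10.5, 9.38 and 11.8 CPM in ketogenic libraries, against 12.9, 9.24, 12 and 11.1 CPM in control libraries. The values were fully mixed between the diets, and the log2 change was -0.03 ± 0.12 with a 95% interval of -0.29 to 0.24 (edgeR adjusted p = 0.919). Slc25a44, a carrier of branched-chain amino acids, had 138, 130, 146 and 128 CPM in ketogenic libraries, against 124, 124, 115 and 131 CPM in control libraries. Its log2 change of 0.14 ± 0.06 did not pass (adjusted p = 0.168). Slc25a38, which supplies glycine for heme synthesis, was at 18.2 ± 2.12 CPM in ketogenic and 15.2 ± 1.51 CPM in control libraries, and its log2 change of 0.26 ± 0.10 missed the threshold (adjusted p = 0.141). Slc25a38 is used strongly by red cell precursors, and the erythroid markers given above were higher in ketogenic libraries, whose part in this value was not tested. Slc25a15, Slc25a26 and Slc25a29 had log2 changes between -0.03 and 0.24, and none passed.

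Of the 5 tested uncoupling proteins and relatives 1 rose, 0 fell and 4 did not pass, with a median log2 change of 0.027. Ucp2 (ENSMUSG00000033685, chr7:100493337-100502020 on GRCm38), which exports four-carbon acids from mitochondria and limits glucose oxidation, had 36.2, 43.8, 42 and 46.1 CPM in ketogenic libraries, against 33.4, 34.7, 35.9 and 31.5 CPM in control libraries. The groups did not overlap, and ketogenic replicate 1 lay just above control replicate 3. The log2 change was 0.31 ± 0.08, a 1.24-fold difference with a 95% interval of 1.1 to 1.39 (edgeR adjusted p = 0.0333). The call was lost without control replicates 1, 2 or 3 or ketogenic replicates 2 or 4, each left out alone, and after removal of the GC and length trend (0.0691). The adjusted p ran from 0.00594 to 0.0982 over all alternatives. The gene overlaps Dnajb13 on the opposite strand, which was at 0.477 ± 0.205 CPM in ketogenic and 0.426 ± 0.110 CPM in control libraries. Whether reads of Ucp2 and Dnajb13 were shared was not tested.

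Ucp2 is known in microglia among other cells. The summed CPM of 6 microglia markers was 227 to 277 in ketogenic and 220 to 244 in control libraries (exact permutation p = 0.4, adjusted p = 0.6). Of these markers 1 passed as higher, Tmem119, with a log2 change of 0.36 ± 0.08, and 5 did not pass. Among those 5 the log2 changes were -0.26 for P2ry12, -0.03 for C1qa, 0.11 for Cx3cr1, 0.15 for Aif1 and 0.18 for Csf1r. The part of microglia in the Ucp2 value was not tested.

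The brain-rich relatives Slc25a14 and Slc25a27, also called UCP5 and UCP4, did not pass. Slc25a14 had 34.6, 40.1, 41.6 and 41.5 CPM in ketogenic libraries, against 36.6, 38.7, 34.3 and 42.9 CPM in control libraries, a log2 change of 0.05 ± 0.08 (edgeR adjusted p = 0.764). Slc25a27 had 33.1, 32.5, 38.4 and 40.0 CPM in ketogenic libraries, against 35.4, 39.8, 30.4 and 35.8 CPM in control libraries, a log2 change of 0.03 ± 0.09 (adjusted p = 0.895). For both genes the diets overlapped throughout. Slc25a30, another relative, and Ucp3, the uncoupling protein of muscle, were lower still at 4.91 ± 0.31 and 2.18 ± 0.58 CPM in ketogenic libraries, against 4.98 ± 0.81 and 2.65 ± 0.62 CPM in control libraries.

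The 5 tested carriers of cofactors and nucleotides did not pass. Slc25a51, the NAD carrier, had 96.4, 86.6, 98.4 and 88.5 CPM in ketogenic libraries, against 88.8, 80.9, 87.4 and 87.2 CPM in control libraries. The groups overlapped, with a log2 change of 0.10 ± 0.06 (edgeR adjusted p = 0.296). Slc25a33 and Slc25a36, which carry pyrimidine nucleotides, had log2 changes of 0.23 ± 0.12 and -0.13 ± 0.07, and neither passed. Slc25a32, for folate and FAD, had a log2 change of -0.13 ± 0.09.

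Carriers of iron and glutathione did not pass either (4 tested, median log2 change 0.049). Slc25a39, a glutathione carrier, had 52.8, 47.1, 57.0 and 57.3 CPM in ketogenic libraries, against 46.5, 46.4, 51.4 and 53.0 CPM in control libraries, a log2 change of 0.12 ± 0.07 (edgeR adjusted p = 0.357). Its paralog Slc25a40 had a log2 change of -0.19 ± 0.12 (adjusted p = 0.377). Slc25a28, or mitoferrin 2, which imports iron in most tissues, had 28.9, 32, 31.8 and 29.3 CPM in ketogenic libraries, against 25.6, 27.3, 28.9 and 26.7 CPM in control libraries. Ketogenic replicate 1 and control replicate 3 nearly touched, and the log2 change of 0.17 ± 0.07 did not pass (adjusted p = 0.158). Slc25a37, or mitoferrin 1, the form of red cell precursors, was at 21.6 ± 1.06 CPM in ketogenic and 21.9 ± 1.1 CPM in control libraries. Its log2 change was -0.02 ± 0.08 (adjusted p = 0.908). The erythroid markers summed to a 2.74-fold higher mean in ketogenic libraries, and their part in the Slc25a37 value was not tested.

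Members without a settled substrate did not pass among 6 tested, with a median log2 change of -0.165. Slc25a46, an outer membrane protein of mitochondrial dynamics, had 92.5, 95.8, 103 and 89.2 CPM in ketogenic libraries, against 103, 99.7, 102 and 91.1 CPM in control libraries. The groups overlapped, with a log2 change of -0.06 ± 0.06 (edgeR adjusted p = 0.599). The other 5 lay under 10 CPM, and their log2 changes of -0.52 for Slc25a35 to 0.54 for Slc25a47 spanned the whole range of the family. Their standard errors were also wide, at 0.22 and 0.32 for these extremes, against 0.05 for Slc25a4.

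Enzymes and channels that work with the carriers were taken from a list of 32 genes, all tested, of which 1 rose, 0 fell and 31 did not pass. That is 3.12%, against 6.52% of all tested genes, and the median log2 change was 0.053. The diets did not overlap for 8 of the 32, or 25%, against 13.7% of all tested genes, with 7 of the 8 higher and 1 lower in ketogenic libraries. Unadjusted p-values were under 0.05 for 8, also 25%, against 24.6% of all tested genes. The gene that rose was Mdh1, the cytosolic malate dehydrogenase of the malate-aspartate shuttle, at 716 ± 34.0 CPM in ketogenic and 604 ± 41.4 CPM in control libraries (SD, n = 4 each), with no overlap between the diets. Its log2 change was 0.25 ± 0.06 (edgeR adjusted p = 0.0244), and the call was lost without control replicates 1, 2 or 3 or ketogenic replicate 2, each left out alone (up to 0.0879). The other enzymes of that shuttle did not pass: Mdh2, of the matrix, had a log2 change of 0.12 ± 0.05 (0.131), Got2, the matrix transaminase, 0.10 ± 0.05 (0.205), and Got1, its cytosolic form, 0.09 ± 0.05 (0.27).

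Neither subunit of the mitochondrial pyruvate carrier, which belongs to a separate family, passed. Mpc1 had a log2 change of 0.10 ± 0.06 and Mpc2 of 0.07 ± 0.08. In the carnitine system, Cpt1a, which forms acylcarnitines at the outer membrane, had 0.06 ± 0.09, and Cpt2, which reverses the step in the matrix, 0.02 ± 0.14. Mcu, the pore of the calcium uniporter, had 0.14 ± 0.08, and Vdac1, the main porin of the outer membrane, 0.13 ± 0.05, and neither passed (edgeR adjusted p = 0.293 and 0.121). Mtch1, a carrier-like protein of the outer membrane named after its values were seen, was at 408 ± 8.54 CPM in ketogenic and 362 ± 16.4 CPM in control libraries, just outside the threshold (adjusted p = 0.0507, with 0.00877 to 0.264 over all alternatives).

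**Figure D4:**
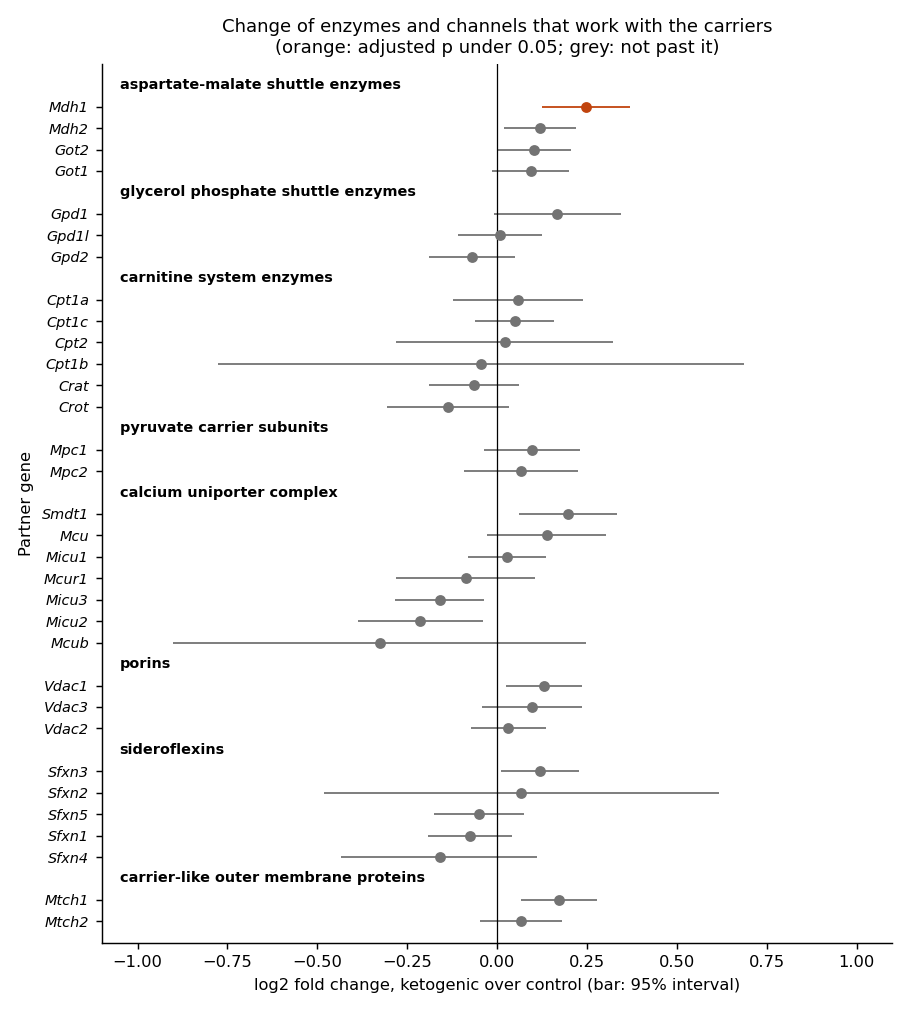
Log2 fold change, ketogenic over control (x axis), with its 95% interval, of 32 genes for enzymes and channels that work with the carriers, by list (y axis). Orange marks Mdh1, the 1 gene past an adjusted p of 0.05, and grey the 31 that did not pass.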

How the data were processed

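The authors deposited whole-number counts per gene symbol and FPKM values for the same 8 libraries. Per the labels' protocols, libraries were made from 1.3 ug of total RNA with a SMARTer messenger RNA kit. Genome builds GRCm38 and mm10 appear in the lists taken from the submitters' processing notes. Which aligner, counter, strand setting and gene models were used was not given in the sources used here. Deposited FPKM values equalled the counts divided by 1 length per gene and the column total (largest relative spread 1.79e-07), so they were used for levels only. Total counts of 34450860 to 40233361 per library limit the precision of members with few counts.

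Ketogenic was compared with control in edgeR 4.0.16 on counts: TMM scaling, genes kept by edgeR's filterByExpr (14895 of 17983), quasi-likelihood F test, design of intercept and diet, Benjamini-Hochberg adjustment over all tested genes, threshold 0.05. CPM values are scaled with TMM. SE is the size of the log2 change divided by the square root of F, and 95% intervals use the test's degrees of freedom. Single values per library that are not of the carriers were set against each other in two-sided exact permutation tests (70 assignments, adjusted over 9 values). The test was tried on simulated data. Alternatives were edgeR with DESeq2 1.42.0 size factors, edgeR with library totals alone, every gene with a count, genes whose CPM averaged at least 1, the DESeq2 Wald test, limma-voom (limma 3.58.1), a replicate block, a loess trend (span 0.3) on GC content and log2 length removed, and each library left out in turn. GC content, from GENCODE release M21 transcripts, was known for 98.1% of tested genes and 100% of tested members.

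Members, substrate groups and other lists were chosen with earlier results of these data known. Named with full values were members past the threshold, the member with the highest FPKM in each substrate group, and 13 members and 10 partner genes fixed by name. The other members and Mtch1 were named after their values were seen. Coordinates are those of GENCODE M21 genes (GRCm38); the gene models behind the counts could be others. The symbols Slc25a52 and Slc25a54 were not analysed here, and the values of 1 tested member are not reported here. For 11 members the bounds overlap another protein-coding gene, whose reads could be shared.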

Additional observations from a re-analysis of the deposited data

Results flagged for a closer look

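In 5 of 84 groups of 4 libraries, over the 42 tested members, 1 library lay far from the other 3 in CPM, judged by its gap to the nearest library as a share of the group's range. Chance flags about 1 in 20 such groups. Ketogenic replicate 3 was low for Slc25a17, at 27.2 CPM. Ketogenic replicate 1 was low for Slc25a42, at 21.3 CPM, and for Slc25a29, at 8.52 CPM. Control replicate 1 was low for Slc25a12, at 167 CPM, and control replicate 3 was high for Slc25a18, at 77.6 CPM.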

How the results depend on the processing

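The 2 carriers past the threshold kept a positive log2 change under all 16 alternatives, Slc25a5 from 0.24 to 0.35 and Ucp2 from 0.26 to 0.38. Slc25a5 passed in 13 and Ucp2 in 10. Carriers past the threshold and higher numbered 4 by the DESeq2 Wald test, 1 after removal of the trend on GC and length, and 0 to 5 with 1 library left out. Lower ones numbered 1 with the replicate block (Slc25a23, adjusted p = 0.0191 in edgeR) and 0 to 1 with 1 library left out. Over all genes the count was 1767 by DESeq2, or 13.7% of those given an adjusted p. It was 1528 (10.3%) with the replicate block and 312 (2.09%) after that removal. With 1 library left out it was 146 to 1900 (0.971% to 12.7%), against 971 (6.52%) as reported. Same-numbered libraries correlated at 0.022 to 0.076 in their deviations from the group means. Differently numbered libraries were not set beside them, so these values cannot tell whether the numbers pair the samples. The sources used here do not say so either, and the block is given as a fit only. The members' median log2 change was between 0 and 0.053 throughout. With the trend removed the median for adenine nucleotides and phosphate was 0.101. With 1 library left out the median was 0.006 to 0.098 for aspartate and glutamate and 0.032 to 0.119 for cofactors and nucleotides. Medians of 2 other groups changed sign: uncoupling proteins (0.027 as reported) with control replicate 3 (-0.038), ketogenic replicate 4 (-0.028) or ketogenic replicate 3 (-0.001) left out, and di- and tricarboxylates (0.020 as reported) at -0.036 without ketogenic replicate 4 and -0.056 with the trend removed. Slc25a4, Slc25a1, Slc25a20, Slc25a27, Slc25a25 and Slc25a46, none of them past the threshold, changed sign in at least 1 alternative. The cause of these differences was not tested. Depth limits the 7 members that were not tested and the 95% intervals of members under 10 CPM.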
